A study of Homo sapiens with 4 samples.

Results

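The genes described here are the chromatin modifiers and remodellers of LNCaP prostate cancer cells. They were taken by symbol from the deposited table of 19205 genes: lysine methyltransferases (KMT, MLL and SETD names), lysine demethylases (KDM), histone deacetylases (HDAC), histone acetyltransferases (KAT), the Polycomb complex genes EZH1, EZH2, SUZ12 and EED, DNA methylation genes (DNMT and TET), bromodomain genes (BRD), arginine methyltransferases (PRMT), and the CHD, SMARC and ARID remodeller genes. The rule found 116 genes in 11 families. Of these, 110 are named as ordinary genes, 4 as antisense RNAs and 2 as pseudogenes. The symbol pattern also takes in the MLLT genes, which are named as fusion partners of MLL in leukaemia and are not all chromatin proteins, and the antisense RNAs, which are named after a neighbouring gene. KDM4A-AS1 shares exon sequence with KDM4A on the opposite strand. The counts of KDM4A-AS1 are fractional in all 4 libraries, and those of KDM4A are whole numbers. Which gene shared the divided reads of KDM4A-AS1 is therefore not known.

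RNA was sequenced from 2 libraries of LNCaP cells overexpressing HOXD13 and 2 libraries of LNCaP cells with an empty vector (EV). LNCaP is an androgen-responsive line derived from a lymph node metastasis of prostate cancer, and HOXD13 is a homeobox transcription factor of the posterior HOX group. Both groups were infected with lentivirus and selected with puromycin, so the EV cells share those treatments. No label gives the promoter that drives the transgene, the number of clones or whether replicates were separate cultures. The p-values can therefore speak only for variation among these 4 libraries, and part of it may be technical.

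Chromatin modifiers add or remove small chemical groups on histone tails and DNA, which mark genes for use or for silencing. Remodellers use ATP to slide, eject or exchange nucleosomes, and so open or close the DNA to transcription factors. In prostate cells the androgen receptor recruits members of both classes to its targets, and EZH2 and KDM1A are among those studied as drug targets in prostate cancer.

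HOXD13 itself had 88 and 104 expected counts in the HOXD13 libraries and 0 and 0 in the EV libraries. Against a floor of 3 counts over the EV group (0.206 CPM, counts scaled to the library total), its 11.4 CPM were at least 55.2-fold higher (adjusted p = 5.12e-12, edgeR). Total expected counts were 8530487 and 8335067 in the HOXD13 libraries and 7662978 and 6881110 in the EV libraries. All 10 luminal prostate markers were present, with summed levels of 5048 and 5156 FPKM (fragments scaled to transcript length and library total) in HOXD13 libraries and 3716 and 3752 FPKM in EV libraries. Markers of other cells were low: the summed fibroblast markers lay at 5.96 to 6.31 FPKM in HOXD13 libraries and 6.17 to 6.9 FPKM in EV libraries, the leukocyte markers at 8.64 to 9.14 FPKM in HOXD13 libraries and 7.83 to 10.8 FPKM in EV libraries, and CD3E was at 0 counts in all 4. Endothelial markers summed to 4.11 to 4.14 FPKM in HOXD13 libraries and 2.88 to 3.13 FPKM in EV libraries. The basal marker KRT14 was higher, with 3.78 and 3.36 FPKM in HOXD13 libraries and 1.67 and 1.24 FPKM in EV libraries. The genes COL1A2, DCN, THY1, CDH5, KRT5 and TP63 are not listed in the deposited tables.

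In bulk RNA, fewer cells that express a gene and less RNA per cell cannot be told apart, and this holds for every value below. The chromatin genes as a group kept close to the same share of the counts: 1.12% and 1.11% in HOXD13 libraries and 1.14% and 1.15% in EV libraries. After a filter on low counts 111 of the 116 could be tested. The other 5 were at the edge of detection: DNMT3L, SMARCA1, HDAC9, KDM4E and the pseudogene BRD7P3 had at most 11 counts in any library. SMARCA1, the ISWI-type ATPase SNF2L, had 8 and 11 counts in HOXD13 libraries and 7 and 8 in EV libraries, and DNMT3L, a catalytically inactive cofactor of the de novo methyltransferases, had 1 and 0 counts in HOXD13 libraries and 0 and 0 in EV libraries.

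The measured change in this class was small and mostly downward. Among abundant genes its median change was close to that of all tested genes of similar counts. By the edgeR quasi-likelihood test at an adjusted p under 0.05 over all 14112 tested genes, 4 of the 111 tested members rose (3.60%; 7.91% of all tested genes rose) and 12 fell (10.8%; 8.11% of all tested genes fell). Together that is 14.4% of the members, close to the 16.0% of all tested genes, so the count of calls does not set the class apart. The 4 that rose were CHD6, DNMT3A, HDAC10 and KDM6B. The 12 that fell were PRMT1, PRMT3, PRMT5, DNMT1, HDAC1, HDAC2, CHD4, SMARCA4, SMARCA5, SMARCAL1, SMARCE1 and ARID2.

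Over the tested members the median log2 fold change was -0.03, with 43 positive and 68 negative, against a median of 0.00 for all tested genes. No member reached a change of 1 on the log2 scale in either direction, and 190 of all tested genes did. The FPKM of the groups did not overlap for 55 members (49.5%), against 54.1% of all tested genes. For 22 of them both HOXD13 libraries lay above both EV libraries (29.3% of all tested genes), and for 33 they lay below (24.8% of all tested genes). The calls gathered in abundant genes. Of 5 bins of genes by expression, the highest-count bin held 45 tested members, of which 2 rose and 10 fell. Of all genes in that bin 17.4% rose and 26.3% fell. Its median log2 fold change was -0.054 for members and -0.053 for all genes. In the next bin (33 members) the medians were -0.015 and -0.017. In the middle bin (14 members) they were -0.055 and -0.005. In the 2 lowest bins they were positive, 0.11 and 0.20 for members and 0.05 and 0.14 for all genes.

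**Figure D1:**
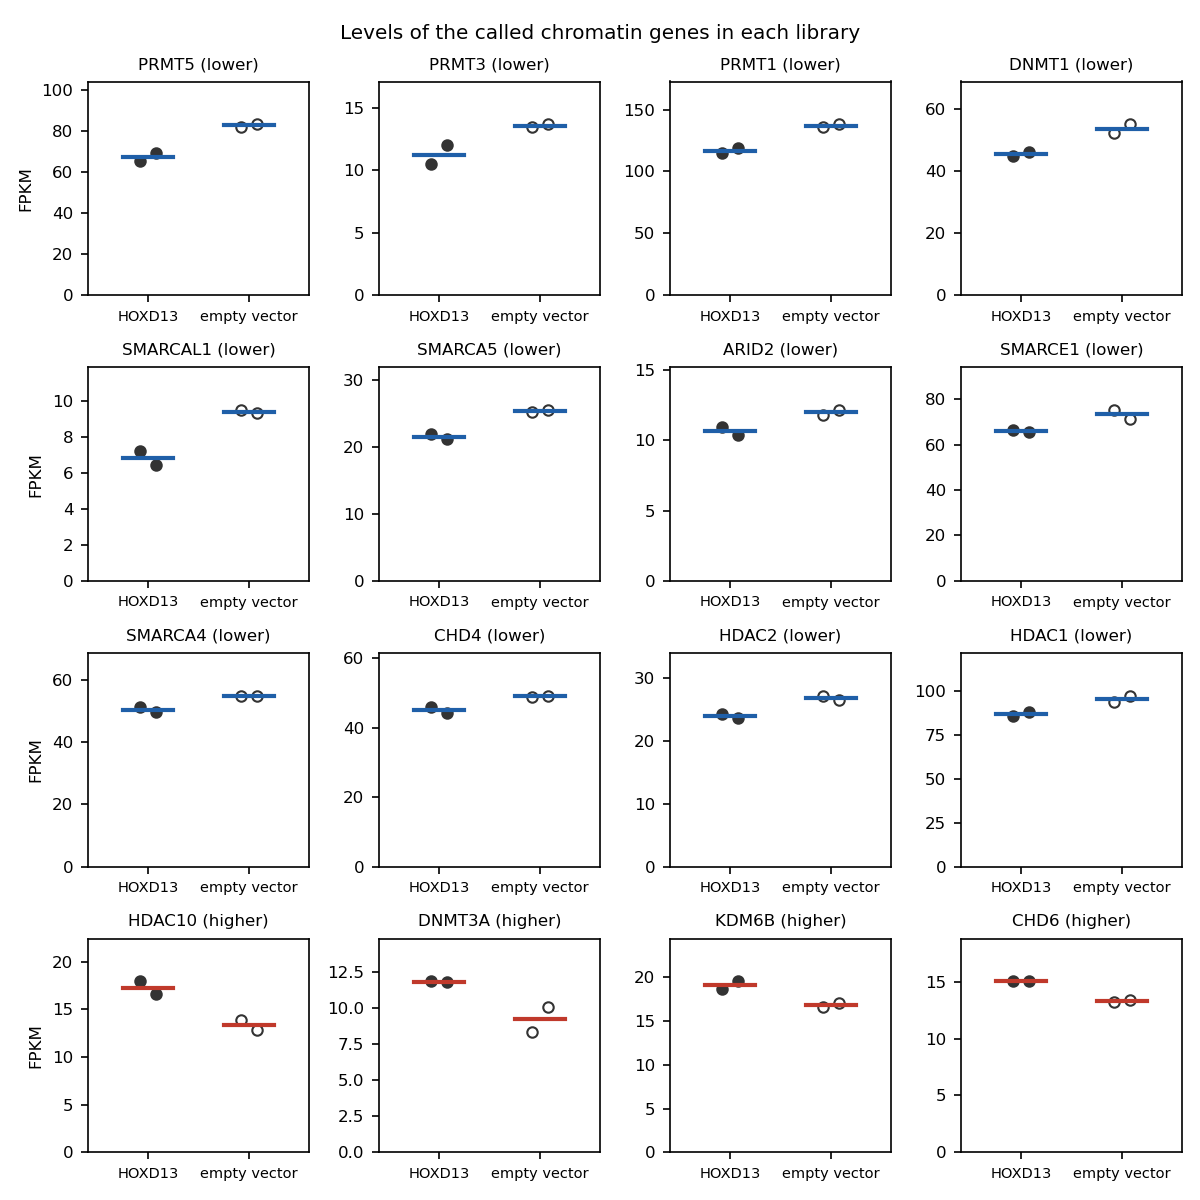
FPKM (y axis, from 0, scale differs between panels) of the 16 called members in each library, HOXD13 libraries on the left and EV libraries on the right, with bars at the group means over 2 libraries. The groups do not overlap for the 4 genes that rose and the 12 that fell, which were chosen by their calls in these libraries. For 54.1% of all tested genes the groups do not overlap either. The differences are small beside the levels themselves.

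Of these 16 calls, 5 were kept whichever library was left out: PRMT5, PRMT1, DNMT1, SMARCA5 and SMARCAL1. The other 11 were lost in at least 1 such fit, and the libraries concerned are given with each gene. DESeq2 did not call ARID2, CHD6, DNMT3A, HDAC1, KDM6B and SMARCE1 and gave no adjusted p for PRMT3 and SMARCAL1. The limma test on log2(FPKM + 1) called only PRMT5 and PRMT1, and neither tool called a member that edgeR did not.

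**Figure D2:**
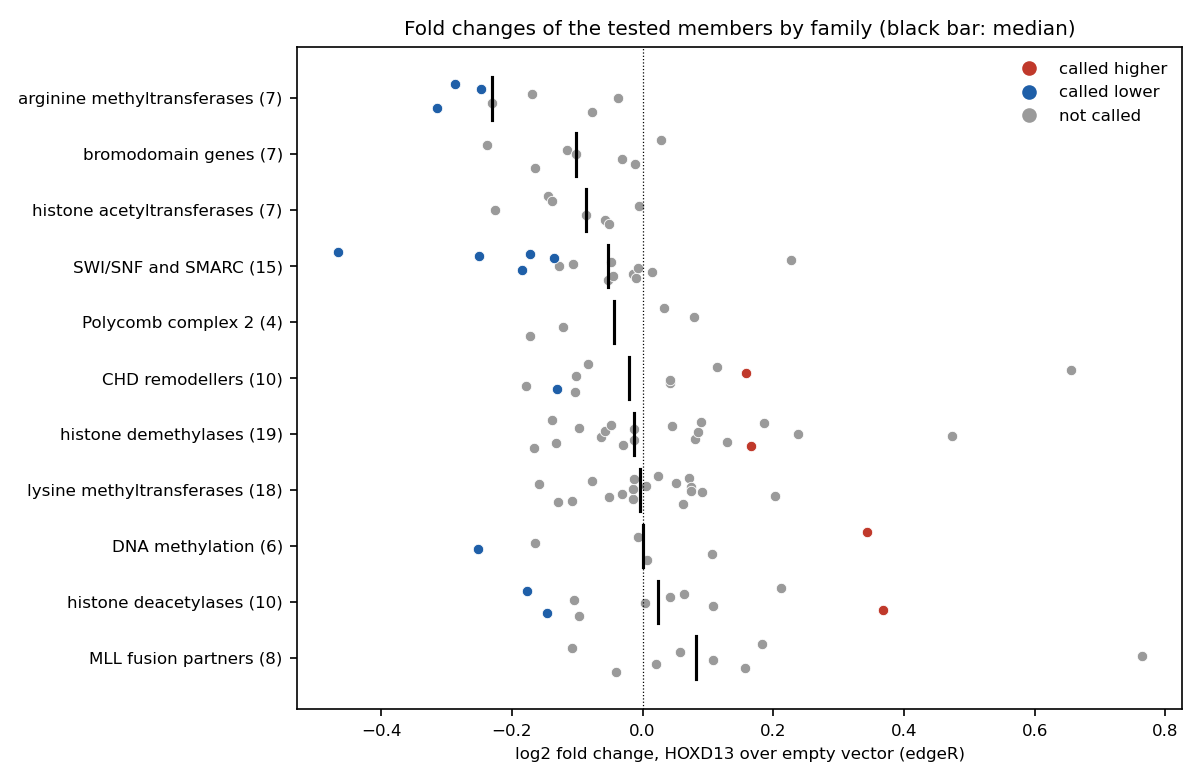
Log2 fold change, HOXD13 over EV, of the 111 tested members (x axis) by family (rows), with black bars at the family medians and colours for called genes. The arginine methyltransferases and acetyltransferases lie wholly below 0, and the called SWI/SNF and SMARC genes are all on the lower side.

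The arginine methyltransferases were the family with the lowest median, -0.23 on the log2 scale. All 7 had negative log2 fold changes. Of these, 3 fell and 4 did not pass the test, against 8.11% lower among all tested genes and 26.3% in the highest-count bin. These enzymes transfer methyl groups to arginines of histones and of many RNA-binding proteins. PRMT5, which makes symmetric dimethylarginine, had 65.4 and 69.2 FPKM in HOXD13 libraries and 82.1 and 83.3 FPKM in EV libraries. Both HOXD13 libraries lay below both EV libraries, by more than the spread within either group. The fitted log2 fold change was -0.31 with a standard error of 0.0471 (adjusted p = 1.12e-05), and it had the smallest adjusted p of all members.

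PRMT1, the main enzyme for asymmetric dimethylarginine, was the most abundant of all members by FPKM. It had 115 and 119 FPKM in HOXD13 libraries and 136 and 138 FPKM in EV libraries, again with no overlap. In the fit this was a log2 fold change of -0.25 (standard error 0.0466, adjusted p = 0.000264). PRMT3, a cytosolic enzyme that methylates the ribosomal protein RPS2, was less abundant, with 10.5 and 12.1 FPKM in HOXD13 libraries and 13.5 and 13.7 FPKM in EV libraries. The log2 fold change of PRMT3 was -0.29 with an adjusted p of 0.0488, and it was no longer called without HOXD13 replicate 1 (0.345, with a log2 fold change of -0.19), without EV replicate 1 (0.116) and without EV replicate 2 (0.129).

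Of the 4 arginine methyltransferases that did not pass, PRMT10 (now PRMT9, which methylates a splicing factor) had a log2 fold change of -0.23 (adjusted p = 0.0858). PRMT7, which makes monomethylarginine, had -0.17 (0.191), PRMT6 had -0.08 (0.444) and PRMT2 had -0.04 (0.835). HOXD13 libraries lay below EV libraries without overlap for 5 of the 7 genes, and for 24.8% of all tested genes.

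The promoters of the 3 arginine methyltransferases that fell are shown as a description of their letters. HOXD13 is a DNA-binding factor, and whether it binds these promoters was not tested. They are RefSeq sequences on GRCh38.p14, 300 bases around each annotated start with most of them upstream, 5′ to 3′ on the gene's strand: PRMT1 at chr19:49677021-49677320 on the plus strand, PRMT3 at chr11:20387466-20387765 on the plus strand and PRMT5 at chr14:22929327-22929626 on the minus strand. Capitals mark matches on either strand to CAATAAA or TCGTAAA (letters recognised by posterior HOX proteins), CACGTG (an E-box) or CCAAT (the NF-Y box, read as ATTGG on the other strand, whose last letters can overlap CAATAAA).
PRMT1: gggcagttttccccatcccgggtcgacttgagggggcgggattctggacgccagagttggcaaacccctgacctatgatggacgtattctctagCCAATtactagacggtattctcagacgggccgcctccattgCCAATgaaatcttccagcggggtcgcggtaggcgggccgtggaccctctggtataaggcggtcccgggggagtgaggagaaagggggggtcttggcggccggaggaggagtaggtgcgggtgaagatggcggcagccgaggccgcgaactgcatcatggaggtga
PRMT3: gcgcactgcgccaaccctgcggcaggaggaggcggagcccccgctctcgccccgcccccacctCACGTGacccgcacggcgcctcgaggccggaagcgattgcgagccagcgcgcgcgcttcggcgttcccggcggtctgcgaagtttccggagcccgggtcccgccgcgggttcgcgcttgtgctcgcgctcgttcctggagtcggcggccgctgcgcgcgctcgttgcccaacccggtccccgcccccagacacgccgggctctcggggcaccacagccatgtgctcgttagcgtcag
PRMT5: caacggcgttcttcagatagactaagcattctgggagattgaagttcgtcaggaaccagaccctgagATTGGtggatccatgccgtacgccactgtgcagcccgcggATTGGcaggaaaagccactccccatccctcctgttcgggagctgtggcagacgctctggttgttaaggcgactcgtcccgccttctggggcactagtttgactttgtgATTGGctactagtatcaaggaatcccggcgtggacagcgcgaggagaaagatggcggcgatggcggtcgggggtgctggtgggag
PRMT1 holds 2 CCAAT matches, PRMT5 holds 3 and PRMT3 holds 1 CACGTG. The share of G and C was 62% for PRMT1, 75% for PRMT3 and 58% for PRMT5, and the windows held 22, 48 and 20 CpG sites for PRMT1, PRMT3 and PRMT5.

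Of the 14 called members with a promoter in the table, none held CAATAAA or TCGTAAA in this window; ARID2 and CHD6 had no entry. Among the 98 tested members with an entry, 2 held CAATAAA (2.04%), against 2.3% of the promoters of 11081 tested genes. CACGTG was found in 12 of the 98 (12.2%) against 10.2%, and CCAAT in 31 (31.6%) against 37.2%. TCGTAAA was found in 0 of the 98 against 0.596%. A match is a description of the letters, and the absence of one says only that they are not in this window.

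Of the 15 tested SWI/SNF and other SMARC genes, 5 fell and the other 10 were not called, against 8.11% lower among all tested genes and 26.3% in the highest-count bin. The median log2 fold change was -0.05, with 13 of 15 negative. SMARCAL1, an annealing helicase that restores stalled replication forks and is not part of SWI/SNF, had 7.20 and 6.45 FPKM in HOXD13 libraries and 9.49 and 9.30 FPKM in EV libraries. Its log2 fold change of -0.47 (standard error 0.114, adjusted p = 0.00396) was the largest fall of any tested member. SMARCA5, the ISWI ATPase SNF2H, which spaces nucleosomes, had 22.0 and 21.2 FPKM in HOXD13 libraries and 25.3 and 25.6 FPKM in EV libraries, a log2 fold change of -0.25 (standard error 0.0454, adjusted p = 0.00016). Neither of these ATPases belongs to SWI/SNF, and for both the libraries of the groups stayed apart.

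Within SWI/SNF, SMARCA4 (BRG1) and SMARCA2 (BRM) are the alternative ATPases. SMARCA4 had 51.1 and 49.6 FPKM in HOXD13 libraries and 54.8 and 54.6 FPKM in EV libraries, a log2 fold change of -0.14 (standard error 0.0393, adjusted p = 0.0158). That call was lost without HOXD13 replicate 2 (0.0679), without EV replicate 1 (0.111) and without EV replicate 2 (0.0764). SMARCA2 had 10.8 and 12.6 FPKM in HOXD13 libraries and 11.6 and 11.6 FPKM in EV libraries, with a log2 fold change of -0.01 (95% interval -0.16 to 0.15, adjusted p = 0.970). The ratio of SMARCA4 to SMARCA2 FPKM was 4.72 and 3.95 in HOXD13 libraries and 4.71 and 4.73 in EV libraries, so the ratios of the groups met in 1 HOXD13 library.

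ARID2, a subunit that marks the PBAF form of SWI/SNF, had 10.9 and 10.4 FPKM in HOXD13 libraries and 11.8 and 12.2 FPKM in EV libraries. ARID2 had a log2 fold change of -0.18 (standard error 0.0599, adjusted p = 0.0312), and it was not called without HOXD13 replicate 2 (0.174), without EV replicate 1 (0.0788) or without EV replicate 2 (0.183). SMARCE1 (BAF57), a DNA-binding subunit, was chosen after its values were seen. It had 66.3 and 65.3 FPKM in HOXD13 libraries and 75.2 and 71.3 FPKM in EV libraries, a log2 fold change of -0.17 (standard error 0.0477, adjusted p = 0.0113), lost without EV replicate 1 (0.197) and with the trends against expression and length removed (0.0626).

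The remaining SWI/SNF subunits did not pass. ARID1A, the DNA-binding subunit often mutated in carcinomas, averaged 25.9 ± 0.544 FPKM in HOXD13 libraries and 26.5 ± 0.870 FPKM in EV libraries (SD, n = 2 each), with a log2 fold change of -0.04 (95% interval -0.13 to 0.04). SMARCB1, a core subunit, had 54.5 and 54.8 FPKM in HOXD13 libraries and 57.7 and 60.8 FPKM in EV libraries, a log2 fold change of -0.13 (adjusted p = 0.157). SMARCD3, 1 of the alternative BAF60 subunits, pointed the other way, with 11.7 and 11.2 FPKM in HOXD13 libraries and 9.77 and 9.57 FPKM in EV libraries, and a log2 fold change of 0.23 (adjusted p = 0.285). For SMARCB1 and SMARCD3 the groups did not overlap, in opposite directions, and for ARID1A they did.

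The CHD remodellers divided evenly, with 5 of 10 positive and 5 negative, and 1 called in each direction (7.91% of all tested genes rose and 8.11% fell). CHD4, the main ATPase of the NuRD complex, had 46.1 and 44.4 FPKM in HOXD13 libraries and 48.9 and 49.2 FPKM in EV libraries. CHD4 had a log2 fold change of -0.13 (standard error 0.0386, adjusted p = 0.0171), not called without HOXD13 replicate 2 (0.0807), EV replicate 1 (0.078) or EV replicate 2 (0.118). CHD6 had 15.0 FPKM in both HOXD13 libraries and 13.2 and 13.4 FPKM in EV libraries, a log2 fold change of 0.16 (standard error 0.0491, adjusted p = 0.0240). The CHD6 call was lost without any 1 of the 4 libraries, with adjusted p from 0.0541 to 0.212, and with the expression and length trends removed (0.0871).

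CHD3, the paralogue that can replace CHD4 in NuRD, had 66.7 and 68.1 FPKM in HOXD13 libraries and 64.4 and 65.2 FPKM in EV libraries (log2 fold change 0.04, adjusted p = 0.463). The ratio of CHD4 to CHD3 FPKM was 0.692 and 0.651 in HOXD13 libraries and 0.759 and 0.754 in EV libraries. Its direction restates the values of both genes, whose groups lay apart in opposite directions. CHD1, a remodeller lost in a subset of prostate cancers, averaged 8.18 ± 0.431 FPKM in HOXD13 libraries and 8.56 ± 0.707 FPKM in EV libraries (SD, n = 2 each), with a log2 fold change of -0.08 (95% interval -0.25 to 0.08). CHD5 was barely detected, at 0.19 and 0.26 FPKM in HOXD13 libraries and 0.15 and 0.13 FPKM in EV libraries (log2 fold change 0.66, adjusted p = 0.357).

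Among the 10 tested histone deacetylases 1 rose, 2 fell and 7 were not called, with a median log2 fold change of 0.02. Of all tested genes 7.91% rose and 8.11% fell, and in the highest-count bin 17.4% rose and 26.3% fell. HDAC1 and HDAC2 are the nuclear enzymes shared by the NuRD, Sin3 and CoREST corepressors. HDAC2 had 24.3 and 23.6 FPKM in HOXD13 libraries and 27.1 and 26.4 FPKM in EV libraries, a log2 fold change of -0.18 (standard error 0.0470, adjusted p = 0.00813), lost without EV replicate 1 (0.1). Both HOXD13 libraries lay below both EV libraries, as they did for HDAC1. HDAC1 had 86.0 and 88.4 FPKM in HOXD13 libraries and 93.7 and 97.5 FPKM in EV libraries, a log2 fold change of -0.15 (standard error 0.0457, adjusted p = 0.0243). The HDAC1 call was lost without HOXD13 replicate 1 (0.122), without EV replicate 2 (0.234) and with the expression and length trends removed (0.172, log2 fold change -0.09).

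HDAC10, a largely cytoplasmic enzyme that deacetylates polyamines, rose. It had 17.9 and 16.6 FPKM in HOXD13 libraries and 13.9 and 12.8 FPKM in EV libraries. Its log2 fold change of 0.37 (standard error 0.0916, adjusted p = 0.00476) was the largest of the 4 called rises, and without EV replicate 2 it was 0.31 with an adjusted p of 0.0558. HDAC10 shares exon sequence with the neighbouring MAPK12 on the same strand. Its expected counts were whole numbers, 417 and 378 in HOXD13 libraries and 288 and 238 in EV libraries, so they show no division of reads with another gene. Whether reads of MAPK12 were counted to HDAC10 was not tested. HDAC3, the enzyme of the NCoR corepressor, had 32.0 and 34.8 FPKM in HOXD13 libraries and 35.6 and 35.4 FPKM in EV libraries (log2 fold change -0.10, adjusted p = 0.373).

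CHD4, HDAC1 and HDAC2 sit together in NuRD, so the other subunits were read as well, a choice made after these values were seen. Of the 10 NuRD genes beside these 3, 2 fell and 8 were not called, where 8.11% of all tested genes fell, and 26.3% in the highest-count bin. The 2 that fell were MTA2, a scaffold subunit, and RBBP4, a histone chaperone. MTA2 had 66.5 FPKM in both HOXD13 libraries and 78.0 and 75.6 FPKM in EV libraries, a log2 fold change of -0.22 (adjusted p = 0.000352; 0.051 by limma on log2(FPKM + 1)). RBBP4 had 41.3 and 41.5 FPKM in HOXD13 libraries and 44.1 and 45.2 FPKM in EV libraries, a log2 fold change of -0.12 (adjusted p = 0.0200), lost without EV replicate 1 (0.0572), without EV replicate 2 (0.191), by DESeq2 (0.051) and by limma (0.225); its reads are partly shared with other genes. The alternative subunits MTA1 and MTA3 had log2 fold changes of 0.11 and 0.12 and did not pass (adjusted p = 0.224 and 0.562).

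**Figure D3:**
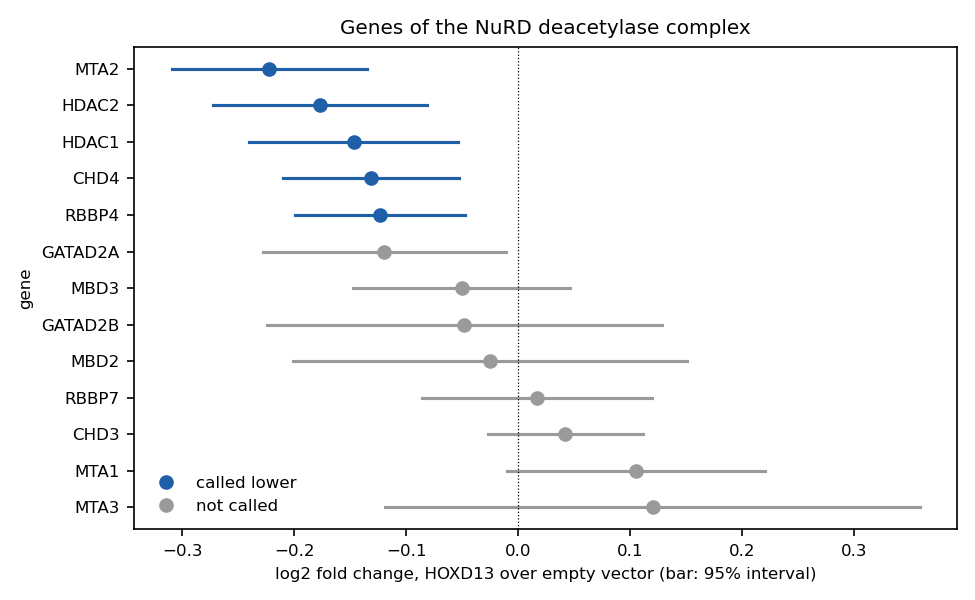
Log2 fold change, HOXD13 over EV, with 95% intervals (x axis) for the 13 NuRD genes (rows). CHD4, HDAC1, HDAC2, MTA2 and RBBP4 lie below 0 and were called, and the intervals of CHD3, MTA1 and MTA3 include 0. GATAD2A was not called, though its interval lies just below 0.

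DNA methylation genes moved in both directions. DNMT1, which copies methylation onto the new strand after replication, had 44.8 and 45.9 FPKM in HOXD13 libraries and 52.2 and 55.0 FPKM in EV libraries. Its log2 fold change was -0.25 (standard error 0.0413, adjusted p = 4.16e-05), and both HOXD13 libraries were below both EV libraries. DNMT1 shares exon sequence with S1PR2 on the same strand.

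DNMT3A, which sets new methylation, was higher, with 11.8 FPKM in both HOXD13 libraries and 8.36 and 10.1 FPKM in EV libraries. DNMT3A had a log2 fold change of 0.34 (standard error 0.0940, adjusted p = 0.0103), and without EV replicate 1 it was 0.22 with an adjusted p of 0.239, so the low EV library decides that call. The ratio of DNMT3A to DNMT1 FPKM was 0.264 and 0.257 in HOXD13 libraries and 0.160 and 0.183 in EV libraries. That direction follows from the values above, since the groups of both genes lay apart in opposite directions, and it is no further result. DNMT3B, the other de novo enzyme, averaged 4.46 ± 0.665 FPKM in HOXD13 libraries and 4.99 ± 0.0919 FPKM in EV libraries (SD, n = 2 each; log2 fold change -0.16, 95% interval -0.43 to 0.10).

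The TET enzymes, which oxidise methylcytosine as a step toward its removal, did not pass. TET2 had 5.40 and 4.99 FPKM in HOXD13 libraries and 5.23 and 4.96 FPKM in EV libraries (log2 fold change 0.01, 95% interval -0.16 to 0.18). TET3 averaged 7.32 ± 0.163 FPKM in HOXD13 libraries and 7.27 ± 0.361 FPKM in EV libraries (SD, n = 2 each; log2 fold change -0.01, 95% interval -0.14 to 0.13). TET1 was low, at 0.54 and 0.83 FPKM in HOXD13 libraries and 0.64 and 0.61 FPKM in EV libraries, and its interval of -0.41 to 0.62 is too wide to show a difference of the size seen in the other genes. The signs of all 3 turned under other settings.

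Proliferation markers moved with these falls. MCM2, CCNB1, PCNA and MKI67 were called lower, with log2 fold changes of -0.26, -0.26, -0.21 and -0.15, and TOP2A had -0.11 (adjusted p = 0.0564). The 5 markers summed to 375 and 373 FPKM in HOXD13 libraries and 426 and 431 FPKM in EV libraries, without overlap. DNMT1 is known to be more abundant in dividing cells, and the part of proliferation in the falls of DNMT1, the arginine methyltransferases and the NuRD genes was not tested.

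The histone demethylases gave 1 call among 19 tested members (5.26%), against 16.0% of all tested genes. KDM6B, also known as JMJD3, removes the methyl mark that Polycomb sets and is known as an inducible gene. It had 18.7 and 19.5 FPKM in HOXD13 libraries and 16.7 and 17.1 FPKM in EV libraries, a log2 fold change of 0.17 (standard error 0.0541, adjusted p = 0.0324). The call was lost without HOXD13 replicate 2 (0.197), EV replicate 1 (0.247) or EV replicate 2 (0.0938), and with the expression and length trends removed (0.0626). KDM6A (UTX), its more abundant paralogue, had 47.1 and 45.3 FPKM in HOXD13 libraries and 44.9 and 47.4 FPKM in EV libraries (log2 fold change -0.01, adjusted p = 0.882). The ratio of KDM6A to KDM6B FPKM was 2.52 and 2.32 in HOXD13 libraries and 2.70 and 2.78 in EV libraries, lower in both HOXD13 libraries.

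KDM1A (LSD1), a demethylase of the CoREST complex that also works with the androgen receptor, had 39.0 and 36.6 FPKM in HOXD13 libraries and 39.3 and 40.9 FPKM in EV libraries. It was lower in both HOXD13 libraries but did not pass (log2 fold change -0.10, 95% interval -0.21 to 0.02, adjusted p = 0.260). KDM5C, which removes methyl groups from the active promoter mark, had 16.0 FPKM in both HOXD13 libraries and 16.9 and 17.5 FPKM in EV libraries (log2 fold change -0.14, adjusted p = 0.0889). The antisense RNA KDM5B-AS1 (now PCAT6) had 6.97 and 6.65 FPKM in HOXD13 libraries and 4.06 and 5.70 FPKM in EV libraries; its log2 fold change of 0.47 did not pass (adjusted p = 0.328).

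Polycomb complex 2, which sets the repressive methyl mark on histone H3, showed no called gene among its 4 members in edgeR. None had an unadjusted p under 0.05, and the groups overlapped for all 4. Of all 14112 tested genes, 16.0% were called, 3954 had such a p and 6482 had overlapping groups. EZH2, the main catalytic subunit, averaged 25.7 ± 1.40 FPKM in HOXD13 libraries and 27.4 ± 2.02 FPKM in EV libraries (SD, n = 2 each). Its log2 fold change was -0.12, with a 95% interval of -0.27 to 0.03 (adjusted p = 0.292). SUZ12, the scaffold, had 25.8 and 24.1 FPKM in HOXD13 libraries and 24.0 and 24.4 FPKM in EV libraries (log2 fold change 0.03, 95% interval -0.08 to 0.15). EED, which reads the mark the complex makes, averaged 10.2 ± 0.820 FPKM in HOXD13 libraries and 11.2 ± 1.10 FPKM in EV libraries (log2 fold change -0.17, 95% interval -0.43 to 0.08). EZH1, the alternative catalytic subunit, had 7.32 and 7.26 FPKM in HOXD13 libraries and 7.28 and 6.35 FPKM in EV libraries, and the ratio of EZH2 to EZH1 was 3.38 and 3.68 in HOXD13 libraries and 3.96 and 4.09 in EV libraries.

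Lysine methyltransferases had the smallest median size of change of the 11 families, 0.07 on the log2 scale. Of 18 tested genes edgeR called 0 (16.0% of all tested genes). None of the 18 had an unadjusted p under 0.05 in edgeR, where 3954 of all 14112 tested genes did. MLL (now KMT2A), which writes the active promoter mark, had the smallest p of them, with 10.7 and 10.6 FPKM in HOXD13 libraries and 9.92 and 9.79 FPKM in EV libraries (log2 fold change 0.09, adjusted p = 0.202). Its relatives MLL2 (now KMT2D) and MLL3 (now KMT2C), which mark enhancers, had log2 fold changes of 0.06 and 0.07. In each case both HOXD13 libraries lay above both EV libraries, as for 29.3% of all tested genes. MLL4 (now KMT2B) and MLL5 (now KMT2E) had log2 fold changes of -0.015 and -0.012 and groups that overlapped, and the value of MLL was 0.039 with the expression and length trends removed. SETDB1, which silences retroelements, had 16.6 and 18.8 FPKM in HOXD13 libraries and 19.7 and 18.0 FPKM in EV libraries (log2 fold change -0.13, adjusted p = 0.215), and its groups overlapped. The abundant members of the family, SETD7 at 56.7 and 56.4 FPKM in HOXD13 libraries and 58.2 and 57.7 FPKM in EV libraries, and SETD5 at 39.7 and 38.6 FPKM in HOXD13 libraries and 38.1 and 38.2 FPKM in EV libraries, did not pass either.

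All 7 histone acetyltransferases of the KAT names had negative log2 fold changes, with a median of -0.09. edgeR called 0 of them (16.0% of all tested genes), and 1 had an unadjusted p under 0.05 (3954 of all 14112 tested genes). That 1 was KAT6A (MOZ), with 13.3 and 13.1 FPKM in HOXD13 libraries and 14.1 and 14.8 FPKM in EV libraries (log2 fold change -0.14, 95% interval -0.25 to -0.04, adjusted p = 0.0603). KAT2A (GCN5), the enzyme of the SAGA coactivator, had 48.6 and 48.2 FPKM in HOXD13 libraries and 51.6 and 50.2 FPKM in EV libraries (log2 fold change -0.09, adjusted p = 0.243). For 3 of the 7 the groups did not overlap, all with HOXD13 libraries below, as for 24.8% of all tested genes.

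Bromodomain genes encode readers of acetylated histones, and 6 of 7 tested were negative, with a median of -0.10. edgeR called 0 of them (16.0% of all tested genes), and 1 had an unadjusted p under 0.05 (3954 of all 14112 tested genes). BRD1, a scaffold of acetyltransferase complexes, had 12.6 and 10.1 FPKM in HOXD13 libraries and 13.0 and 13.6 FPKM in EV libraries (log2 fold change -0.24, 95% interval -0.42 to -0.06, adjusted p = 0.0620). BRD2, second only to PRMT1 in level, had 105 and 105 FPKM in HOXD13 libraries and 109 and 104 FPKM in EV libraries (log2 fold change -0.03, adjusted p = 0.639).

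Of the 8 MLL fusion partner names 6 had positive log2 fold changes, with a median of 0.08. Without the antisense RNA MLLT4-AS1 and the pseudogene MLLT10P1, 4 of 6 were positive and the median was 0.038. edgeR called 0 of them (16.0% of all tested genes), and 2 had an unadjusted p under 0.05 (3954 of all 14112 tested genes). MLLT1 (ENL), a reader of acetylated histones in the elongation machinery, had 60.3 and 56.1 FPKM in HOXD13 libraries and 62.5 and 61.7 FPKM in EV libraries (log2 fold change -0.11, 95% interval -0.19 to -0.02, adjusted p = 0.0745). The antisense RNA MLLT4-AS1 (now AFDN-DT) had 2.62 and 2.64 FPKM in HOXD13 libraries and 1.98 and 1.05 FPKM in EV libraries. Its log2 fold change of 0.76 was the largest of all tested members and did not pass (adjusted p = 0.0858).

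Leaving out the antisense RNAs and pseudogenes left the calls as they were, 4 higher and 12 lower among 106 tested genes.

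**Figure D4:**
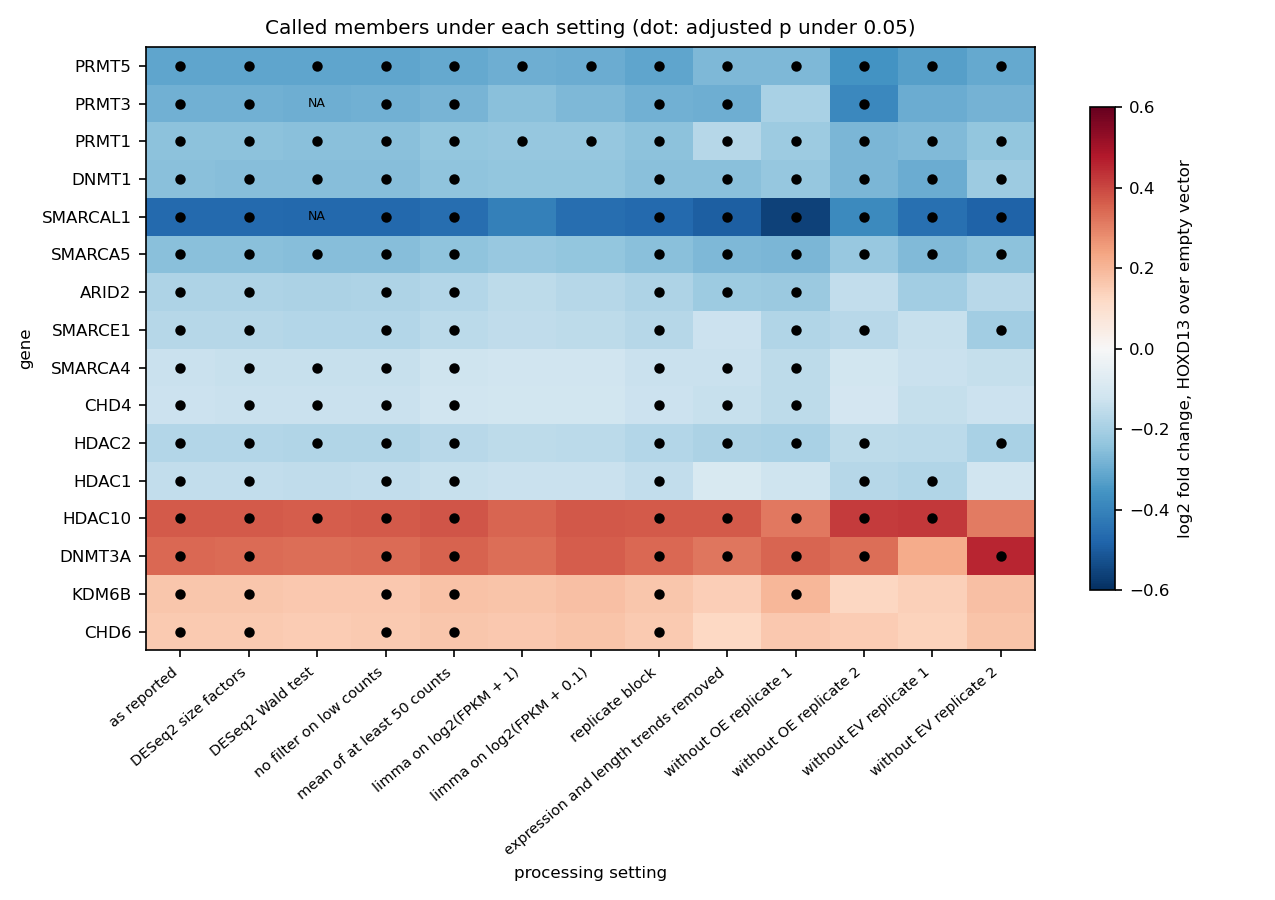
Log2 fold change, HOXD13 over EV (colour), of the 16 called members (rows) in the reported fit and 12 other settings (columns), with a dot where the adjusted p was under 0.05. PRMT1 and PRMT5 carry a dot in every column, the limma columns lack the other 14 dots, and the columns without EV replicate 1 and EV replicate 2 lack 9 and 8 dots.

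Chromatin genes that the symbol rule does not match were read as a list written from textbook knowledge. Of 86 such genes, all tested, 1 rose (1.16%) and 10 fell (11.6%), against 7.91% and 8.11% of all tested genes, with a median log2 fold change of -0.05. BMI1, a Polycomb complex 1 subunit, had 9.18 and 8.01 FPKM in HOXD13 libraries and 13.1 and 10.9 FPKM in EV libraries (log2 fold change -0.50, adjusted p = 0.00101); its reads are partly shared with other genes, and without EV replicate 1 the adjusted p was 0.0505. CBX2, another Polycomb complex 1 subunit, had 13.6 and 13.9 FPKM in HOXD13 libraries and 16.9 and 18.2 FPKM in EV libraries (log2 fold change -0.36, adjusted p = 0.00068). BAZ1A, a partner of SMARCA5 in the ACF remodeller, had 17.7 FPKM in both HOXD13 libraries and 20.9 and 22.4 FPKM in EV libraries (log2 fold change -0.30, adjusted p = 0.000183). Of these 3 falls limma called none (adjusted p = 0.0889 for BMI1, 0.0528 for CBX2 and 0.0674 for BAZ1A), and DESeq2 gave no adjusted p for BMI1.

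Other Polycomb complex 1 genes of the list pointed the other way without passing, and are given here after their values were seen. RING1, a catalytic subunit, had 32.1 and 30.6 FPKM in HOXD13 libraries and 26.8 and 26.2 FPKM in EV libraries (log2 fold change 0.23, adjusted p = 0.0549). RNF2, the alternative catalytic subunit, had 6.96 and 5.98 FPKM in HOXD13 libraries and 5.11 and 5.61 FPKM in EV libraries (log2 fold change 0.26, adjusted p = 0.188). CBX7 and CBX8 had log2 fold changes of 0.14 and 0.10, and PCGF1 and PCGF6 had -0.58 and -0.19 (adjusted p = 0.145 and 0.491).

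The 1 gene of that list that rose was NCOA3, a coactivator of nuclear receptors, with 6.20 and 6.48 FPKM in HOXD13 libraries and 5.52 and 4.96 FPKM in EV libraries (log2 fold change 0.26, adjusted p = 0.0397). It was not called without HOXD13 replicate 2 (0.163), without EV replicate 2 (0.304), with the expression and length trends removed (0.118), by DESeq2 (0.173) or by limma (0.222). UHRF1, which brings DNMT1 to newly replicated DNA, was chosen after its values were seen. It had 27.8 and 27.6 FPKM in HOXD13 libraries and 32.5 and 31.1 FPKM in EV libraries (log2 fold change -0.21, adjusted p = 0.00616), lost without EV replicate 1 (0.106) and by limma (0.0986).

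The tables also give, per library, the mean transcript length that the authors' quantification assigned to each gene, which moves when the mix of transcripts of a gene moves. Among tested members 54 had a length that varied between libraries. For 9 both HOXD13 libraries were longer and for 10 both were shorter, together 35.2% against 31.7% of all tested genes with a varying length. The median size of the change was 0.442% for members and 0.388% for all such genes.

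SETD4, a methyltransferase of the SETD group, stood out, with mean lengths of 2966 and 2784 bases in HOXD13 libraries and 2377 and 2511 bases in EV libraries, 17.6% longer in the HOXD13 mean. Its counts were 156 and 142 in HOXD13 libraries and 116 and 129 in EV libraries, so the log2 fold change of counts was 0.05 (adjusted p = 0.862). Its FPKM, which divide by that length, were 6.15 and 6.10 in HOXD13 libraries and 6.36 and 7.44 in EV libraries. The direction of SETD4 thus differs between the counts and the FPKM. HDAC8, a class I deacetylase, had 2241 and 2238 bases in HOXD13 libraries and 2177 and 2143 bases in EV libraries, 3.7% longer.

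**Figure D5:**
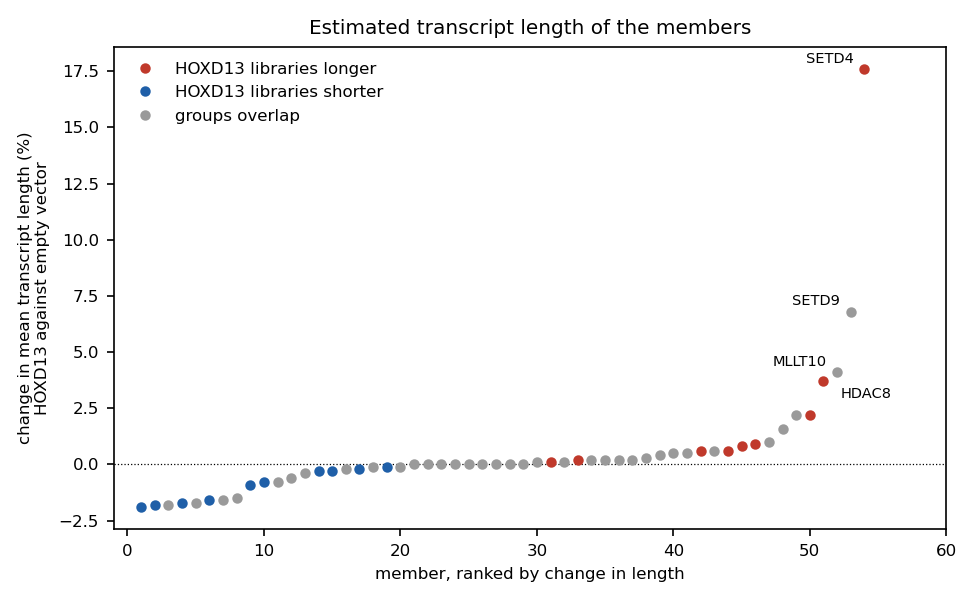
Change of the mean transcript length, HOXD13 over EV in percent (y axis), for the 54 tested members whose length varied between libraries, ranked by that change (x axis). SETD4 is the farthest from 0 at 17.6%, and most members lie close to 0.

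Among the called members, HDAC2 and SMARCA5 have fractional counts, so some of their reads were divided with other genes. No source used here says whether counting used the strand, so reads of CHD4, HDAC2, PRMT1, PRMT5, SMARCA5, SMARCAL1 and SMARCE1 cannot be told apart from those of antisense or opposite-strand neighbours that share exon sequence with them. CHD4, PRMT1 and SMARCE1 also share exon sequence with a gene on the same strand.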

How the data were processed

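RNA from 2 HOXD13-overexpressing and 2 empty-vector LNCaP libraries was sequenced after oligo(dT) enrichment of mRNA, per the labels' protocols. Per the submitters' processing notes, the tools were Bowtie2 and RSEM and the builds hg18 and hg19; which build served which step, and tool versions, is not given in the sources used here. Expected counts, lengths and FPKM per gene were deposited for each library, per the file headers. Expected counts are RSEM estimates that divide shared reads among genes. A gene missing from a library's table was given 0 counts. The deposited FPKM of the table of all 4 libraries differed from the library tables in 0 values.

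Rounded expected counts were tested with edgeR 4.0.16 (R 4.3.3; quasi-likelihood, robust, TMM, filterByExpr, 14112 genes tested), HOXD13 minus empty vector, with calls at p under 0.05 after Benjamini-Hochberg adjustment over all genes tested. The biological coefficient of variation was 2.7%, TMM factors were 0.995 to 1.01, and total expected counts ran from 6881110 to 8530487, giving members a median standard error of 0.0723 on the log2 scale. The script was tested on simulated data. Intervals are 95% intervals from the same fit and cover the spread of these libraries only. The smallest exact permutation p for 2 against 2 is 0.333, so no such test was used. Alternatives were DESeq2 1.42.0 (its size factors, and its Wald test), other count filters, limma 3.58.1 on log2 FPKM with a pseudocount of 1 or 0.1 where 2 libraries reached 1 FPKM, a replicate block, removal of expression and length trends (mgcv 1.9.3), each library left out, and an adjusted p under 0.01.

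The members and lists were chosen with earlier results of these data known. Named were, per family, up to 3 called members in each direction by size of change or else the member with the smallest p, a set of 18 members always given (1 of them is not reported here), and up to 4 called genes of the list of other chromatin genes; further genes are described by values. All 116 gene IDs matched RefSeq, 11 under another current symbol. Exon overlaps are from GENCODE v29, used for names only.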

Additional observations from a re-analysis of the deposited data

How the results depend on the processing

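With DESeq2 size factors, without a count filter, with a mean of at least 50 counts and with the replicate block, members called higher stayed at 4 and members called lower were 12, 13, 12 and 14. The DESeq2 Wald test called 1 member higher and 7 lower (467 and 598 of all genes). The limma test called 0 members higher and 2 lower with either pseudocount (398 and 261 of all genes with 1, 382 and 265 with 0.1); at an unadjusted p under 0.05 it had 7 members higher and 12 lower. With expression and length trends removed 2 members were higher and 12 lower. At an adjusted p under 0.01, 1 member was higher and 6 lower (647 and 633 of all genes). Leaving out 1 library gave 1 to 3 members higher and 6 to 12 lower, with 751 to 927 of all genes higher and 714 to 1064 lower. The cause of these moves was not tested, beyond the fewer libraries and the stricter threshold. Same-numbered libraries of the groups had deviations with a correlation of 0.0733 over 11483 genes. With only 2 pairs, that value cannot decide whether same-numbered libraries are paired. The replicate block lost 0 of the 16 member calls and added BRD1 and KAT6A (1226 and 1297 of all genes higher and lower). Of 466 values of 39 named genes under alternatives, 351 kept direction and side of the threshold, 6 had no adjusted p under DESeq2, 86 lost the call, 7 gained one and 16 changed sign. The sign changes were in 6 genes near 0. SMARCA2 was 0.0026 with at least 50 counts, 0.0087 and 0.0091 under limma and -0.12 to 0.10 with a library left out. TET3 was 0.0030, 0.0093 and 0.0105 under the same 3 settings and -0.054 to 0.041 with a library left out. TET1 was -0.060 and TET2 -0.051 with trends removed, and with a library left out TET1 was -0.23 to 0.38 and TET2 -0.045 to 0.055. SUZ12 was -0.014 to 0.076 and CHD1 -0.16 to 0.00027 with a library left out. Depth limits the low genes, with standard errors of members up to 0.441.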

Other observations

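A few members that were not called passed the threshold under another setting. BRD1 was called lower without a count filter, with the replicate block, with trends removed and without HOXD13 replicate 1. KAT6A was called lower with the replicate block and with trends removed. MLLT1 was called lower without HOXD13 replicate 1, BRD7 (adjusted p = 0.180 with all libraries) lower without HOXD13 replicate 2 and MLLT4-AS1 higher without EV replicate 1.

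Across the 111 tested members the log2 fold change had a Spearman rho of -0.29 with expression level and 0.14 with transcript length, against -0.20 and 0.12 over 14112 tested genes. These are descriptions across genes of the same 4 libraries, and genes are not independent replicates. Members are longer than the genes tested, with a median length of 4617 bases against 2908.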
